A study of Danio rerio and Garra andruzzii with 24 samples.

Results

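*lonrf1l* is 1 of the 35886 genes counted against the zebrafish genome in PAC-2 cells, and it was chosen by its normalized counts at 1 h and 0 h of blue light, as the gene with the largest fold change among the 4 called higher at 1 h. It was found by its gene name. For contrast, the 1 other gene whose name begins with lonrf, *lonrf1*, was taken with it, and so were the rows annotated with the UniProt entries LONF1, LONF2 or LONF3 in 2 transcriptomes assembled without a genome, 3 of 24467 in PAC-2 cells and 3 of 25656 in cavefish cells. All of these members passed the filter on low counts, beside 18017 genes of the genome table and 23412 and 23118 assembled genes that passed it in all.

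The study asked which transcripts visible light changes in fish cells and whether a fish that has lived without light responds in the same way. PAC-2 is a fibroblast line from wild type zebrafish embryos (*Danio rerio*), and EPA is an embryonic fibroblast line from the blind Somalian cavefish *Phreatichthys andruzzii*. Both were kept in darkness for 2 days and then exposed to 468 nm light for 0 h (the DD control), 1 h, 3 h or 6 h, with 3 mRNA-seq libraries per line and time and 24 in all. All groups thus share the dark period, each species is represented by 1 cell line, and since later libraries all come from lit cells, the effect of light cannot be told apart from that of time in culture. It is not stated whether the libraries of each group stem from separate cultures, and p-values then rest on a spread between libraries that could be technical.

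Genes of the LONRF family encode proteins with a RING finger, the zinc-binding fold of many ubiquitin ligases, together with tetratricopeptide repeats (TPR) and a domain shared with the substrate-binding part of the Lon protease. Ubiquitin ligases pass ubiquitin from a conjugating enzyme to a target protein, which often marks it for the proteasome. In the mouse, LONRF2 is known as a ligase of protein quality control in neurons.

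The libraries hold between 20037859 and 32521127 counts in the genome table, between 25642113 and 41784013 in the assembled PAC-2 table and between 28222058 and 40053884 in the EPA table. Of 16 fibroblast markers, 13 were above 10 TPM (a level corrected for gene length and library size) in dark PAC-2 cells, while *vim*, *dcn* and *thy1* did not pass 1 TPM. The summed level of the list was 3832 to 4115 TPM in light and 3860 to 4025 TPM at 0 h. Among markers of other cell types, 3 of 5 epidermis markers were above 10 TPM, and the epithelial keratin *krt8* reached 1000 TPM. Of 3 pigment markers, 1 was above 10 TPM (*dct*, 182 TPM), and of 5 muscle markers also 1 (the actin *acta1a*, 60.8 TPM). The median was 30.2 TPM for epidermis, 0.347 TPM for pigment and 0.200 TPM for muscle markers. Of the neural markers 0 of 4 and of the endothelial and blood markers 0 of 5 passed 1 TPM. The summed muscle markers were lower in light, with 31.5 to 56.8 TPM against 62.0 to 63.2 TPM at 0 h. At 0 h, *acta1a* alone made up most of this muscle sum. The summed epidermis markers ran from 889 to 1108 TPM in light and from 1041 to 1196 TPM at 0 h. Whether cells of these other types were present, and what part they had in the results below, was not tested. In such bulk samples, more cells with a transcript and more transcript per cell cannot be told apart.

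In the annotation of the genome table (build GRCz11), *lonrf1l* (ENSDARG00000078567) is a protein-coding gene on the plus strand of chromosome 8, from 13700605 to 13788311, with a transcript length of 4572 bases. *lonrf1* (ENSDARG00000075048) lies on the plus strand of chromosome 14, from 34068075 to 34092744, with a length of 5581 bases. A current symbol table pairs the first ID with the symbol *lonrf1* and the second with *lonrf4*. The names of the deposited table are used throughout.

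The *lonrf1l* transcript was near the middle of all tested genes in darkness and among the more abundant after 3 h of light. Its normalized counts, which are counts corrected for library size and composition, were 417, 326 and 372 in the 3 libraries at 0 h. They were 1702, 1711 and 1570 at 1 h, 5889, 6085 and 6168 at 3 h, and 4777, 5336 and 5134 at 6 h. No light-exposed library came near the dark libraries, and none of the 4 groups overlapped with another. The gene was chosen for its gap between 0 h and 1 h, so that this gap is no independent finding. The share of all genes with such separate groups is not given here. The means were 372 ± 45.6 at 0 h, 1661 ± 79.0 at 1 h, 6047 ± 143 at 3 h and 5082 ± 283 at 6 h (SD, n = 3 each).

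Against 0 h, the log2 fold change of *lonrf1l* was 2.15 (SE 0.07) at 1 h, 4.02 (SE 0.07) at 3 h and 3.76 (SE 0.07) at 6 h. These values are descriptions, with no test, since the gene was chosen for its increase at 1 h and each comparison shares libraries with that choice. At 1 h, 4 of 18017 genes (0.0222%) were called higher, meaning that their log2 fold change was 1 or more and their adjusted p (Benjamini-Hochberg) below 0.001. Another 13 genes had a larger log2 fold change at 1 h than *lonrf1l*, and 0 of them passed this call in edgeR or DESeq2. Of these 13, 7 had an unadjusted p under 0.05 in edgeR, beside 6.02% of all tested genes, but they were picked for a large fold change. The highest mean count per library among them was 702. Between 1 h and 3 h, *lonrf1l* differed by a further 1.86 (SE 0.06) on the log2 scale.

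**Figure D1:**
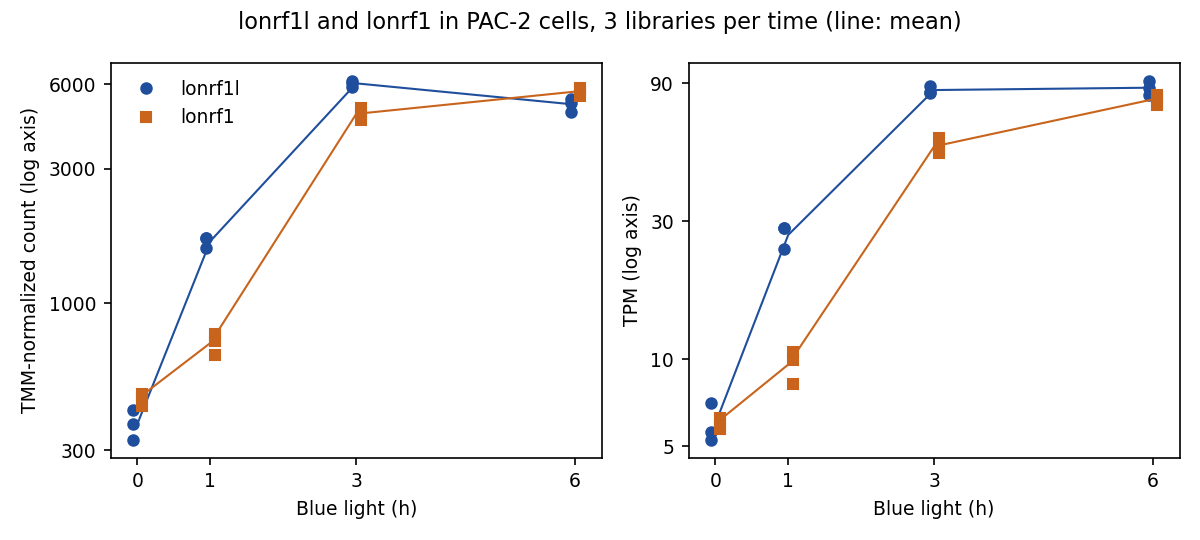
Levels of *lonrf1l* and *lonrf1* in each PAC-2 library by hours of blue light (points; the line joins the means of 3 libraries), as normalized counts on the left and as TPM on the right, both on log axes. At 1 h, *lonrf1l* averaged 1661 normalized counts and *lonrf1* 721, while at 0 h they averaged 372 and 456.

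Levels per length place *lonrf1l* among all tested genes. Its mean was 5.97 ± 0.947 TPM at 0 h, 26.9 ± 2.54 TPM at 1 h, 85.3 ± 2.67 TPM at 3 h and 87.0 ± 4.80 TPM at 6 h (SD, n = 3 each). In darkness, 54.6% of the tested genes had a higher mean TPM, and this share was 23.0% at 1 h, 7.54% at 3 h and 8.05% at 6 h. In the deposited FPKM values, *lonrf1l* ranged from 2.77 to 3.55 at 0 h, from 13.4 to 14.6 at 1 h, from 49.9 to 52.3 at 3 h and from 40.4 to 45.3 at 6 h.

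The means compared between 6 h and 3 h come from no library of the choice at 1 h, and this comparison was tested. The SE and adjusted p also draw on the libraries at 0 h and 1 h, since the spread is fitted over all PAC-2 libraries. The choice of a gene called at 1 h favours a small spread in those libraries. Over the edgeR and DESeq2 alternatives, among them a fit of only the times compared, the adjusted p of *lonrf1l* ran from 2e-04 to 0.028. The 3 libraries at 6 h all lay below the 3 libraries at 3 h in normalized counts, with a log2 fold change of -0.25 (SE 0.06, 95% interval -0.39 to -0.11, adjusted p = 0.0036 by edgeR), while on the TPM scale the difference was 0.03, with the opposite sign. This difference was under the fold threshold and *lonrf1l* was not called, where 270 genes (1.50%) were called higher and 18 genes (0.0999%) lower. With no fold threshold, an adjusted p under 0.05 in edgeR was met by 20.4% of all tested genes higher and 20.1% lower. The share of all genes with such separate libraries is not given here. The TPM scale moved the median of all tested genes by 0.27 between these times. Relative to the median of its scale, the difference of *lonrf1l* was -0.25 on both scales. Both scales rest on the same counts, so that this match follows from how they are built and does not decide between the signs. Of 19 alternatives to the main fit, 18 gave a negative sign, the deposited FPKM values among them, and the TPM scale did not.

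In absolute terms, the level of *lonrf1l* climbed by 1289 normalized counts per hour in the first hour and by 2193 per hour between 1 h and 3 h, and changed by -322 per hour from 3 h to 6 h. At 1 h it stood at 27.5% of its highest mean level. This share includes the level in darkness and the value at 1 h by which the gene was chosen, so that it is a description. Among the 4 genes called at 1 h, *nfil3-6*, a bZIP repressor gene, was at 25.1% of its highest level, *cry5*, the photolyase of 6-4 photoproducts, at 8.92%, and *soul5*, a heme-binding protein gene, at 3.29%. *per2*, a clock repressor gene known for its induction by light in zebrafish, was at 6.82%. Larger shares than that of *lonrf1l* occurred too, as for *cry1aa*, which averaged 3261 normalized counts at 1 h and 7685 at 3 h, its highest mean.

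On the log2 scale, *lonrf1l* reached 53.6% of its largest log2 change at 1 h, where the median over the 276 genes called higher at 3 h or 6 h was 8.96%, and *lonrf1l* had rank 3 among them. This share holds the value at 1 h by which the gene was chosen, so that its rank is a description that the choice largely set. The share was 37.9% for *nfil3-6*, 24.0% for *cry5*, 20.6% for *soul5* and 7.31% for *per2*. Of the 276 genes, 229 had a log2 fold change above 0 at 1 h, with a median of 0.14, beside -0.0045 over all tested genes. The 276 genes were called against the same 0 h libraries, which favours values above 0 at 1 h. The share of all tested genes above 0 is not given here.

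**Figure D2:**
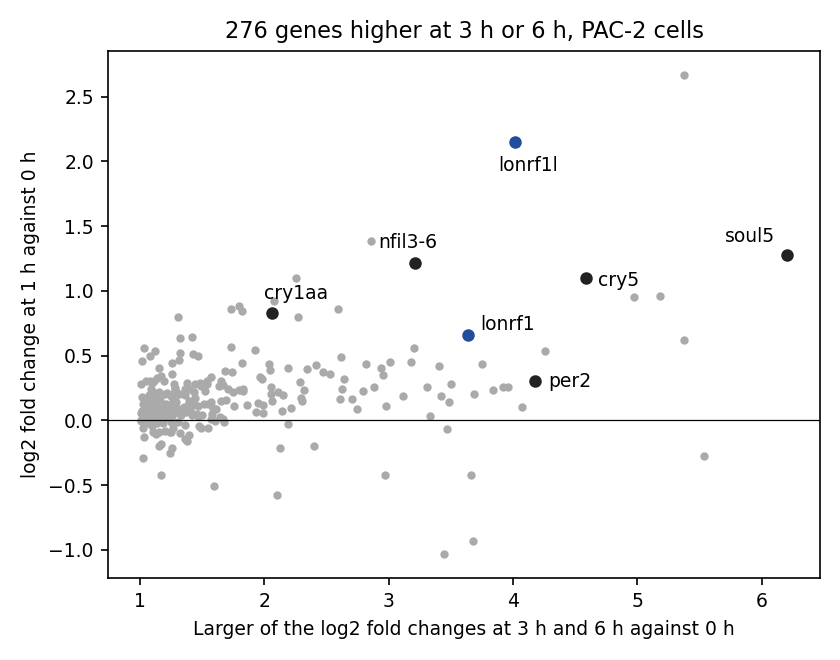
Log2 fold change at 1 h against 0 h (vertical) and the larger of the log2 fold changes at 3 h and 6 h (horizontal) for the 276 genes called higher at 3 h or 6 h in PAC-2 cells, 1 point per gene, with the lonrf genes in blue. *lonrf1l* lies at 2.15 and 4.02, *soul5* at 1.28 and 6.21, and *per2* at 0.31 and 4.18.

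The timing references then took different courses. *soul5* was at 1.28, 5.31 and 6.21 on the log2 scale after 1, 3 and 6 h against 0 h. *cry5* was 2.14-fold higher at 1 h than at 0 h and at 4.13 and 4.59 on the log2 scale at the later times. In the order of hours, *nfil3-6* was at 1.22, 3.10 and 3.22, and *per2* at 0.31, 4.18 and 3.67. At 3 h, *soul5*, *per2* and *cry5* were above *lonrf1l*, whose place at 1 h was fixed by the choice of the gene. Of the 127 genes called higher at 3 h (0.705% of those tested), 35 had a negative log2 change from 3 h to 6 h, the median change was 0.21, and 13 lay below that of *lonrf1l*.

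Most of the change of the paralog *lonrf1* came after the first hour. Its normalized counts were 430, 474 and 465 at 0 h, 777, 731 and 655 at 1 h, 4470, 4705 and 4954 at 3 h, and 5821, 5695 and 5440 at 6 h. The groups did not overlap, and each later time lay above the time before it, but the share of all genes with such separate groups is not given here.

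After 1 h, the log2 fold change of *lonrf1* was 0.66 (SE 0.07, adjusted p = 0.00012 by edgeR), under the fold threshold, so that it was not called. It rose at 3 h by 3.37 (SE 0.07, adjusted p = 1.9e-15) and at 6 h by 3.63 (SE 0.07, adjusted p = 5.0e-16) against 0 h on the log2 scale, where 0.705% and 1.47% of all tested genes were called higher. Between 1 h and 3 h it rose by 2.71 (SE 0.06, adjusted p = 1.6e-14), with 0.483% of genes called higher. From 3 h to 6 h the log2 change was 0.26 (SE 0.06, adjusted p = 0.0016), which was not called.

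The ratio of both genes is given as a description, since the values of *lonrf1l* at 0 h and 1 h, by which it was chosen, enter it. In TPM, the ratio of *lonrf1l* to *lonrf1* was 1.19, 0.840 and 0.976 in the libraries at 0 h and 2.67, 2.86 and 2.93 at 1 h. At 3 h it was 1.61, 1.58 and 1.52, and at 6 h 1.00, 1.14 and 1.15. The libraries at 1 h had the highest ratios, which the choice of *lonrf1l* favours, and those at 6 h lay within the range of those at 0 h. *lonrf1* itself averaged 5.98 ± 0.263 TPM at 0 h, 9.58 ± 1.25 TPM at 1 h, 54.5 ± 3.29 TPM at 3 h and 79.3 ± 3.34 TPM at 6 h (SD, n = 3 each). In the first hour its level climbed by 265 normalized counts per hour, then by 1994 per hour up to 3 h and by 314 per hour up to 6 h.

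**Figure D3:**
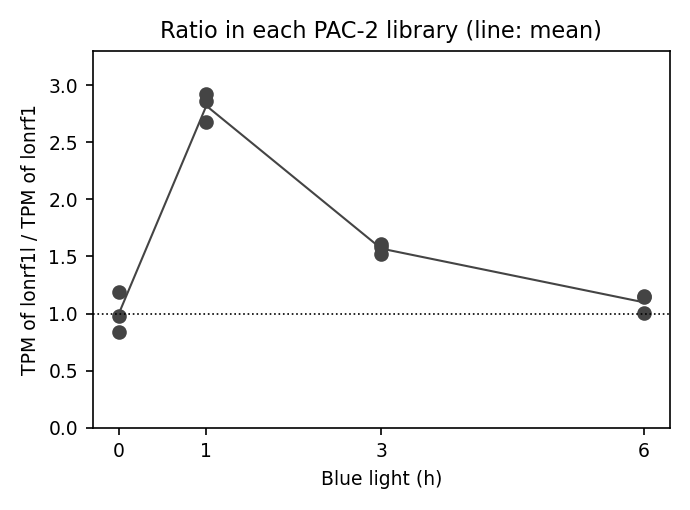
Ratio of the TPM of *lonrf1l* to that of *lonrf1* in each PAC-2 library by hours of blue light (points; the line joins the means of 3 libraries, the dotted line marks equal TPM). The libraries at 1 h lie between 2.67 and 2.93, and those at 6 h between 1.00 and 1.15.

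Genes with a pattern like that of *lonrf1l* were sought by Pearson's r of log2 CPM (counts scaled to library size) over the 12 PAC-2 libraries, among 15500 genes with a mean of at least 0 on that scale. The 5 closest were *cry1aa* (r = 0.989), a clock cryptochrome gene, *pfkfb3* (r = 0.987), whose enzyme sets the level of an activator of glycolysis, *osgn1* (r = 0.985), an unannotated locus (r = 0.984) and *gnmt* (r = 0.982), a glycine methyltransferase gene. The points share 4 times, so that r mainly describes the course of the means. By Spearman's rho, 0 of these 5 were among the closest 5 genes. *lonrf1* came in place 54 with r = 0.930.

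These 5 genes were picked for their likeness in the same libraries, so that their course is no finding, and their changes were smaller than those of *lonrf1l*. *cry1aa* was at 0.82, 2.06 and 1.87 on the log2 scale after 1, 3 and 6 h against 0 h, and *osgn1* at 0.84, 1.82 and 1.65. *pfkfb3* was at 0.64, 1.32 and 1.32, the unannotated locus at 0.42, 0.77 and 0.77, and *gnmt* at 0.22, 0.49 and 0.47.

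On its chromosome, *lonrf1l* had the highest count among its near neighbours. Of the nearest 3 genes on each side, *pimr107* and *cabp4* had 0 counts over all 12 libraries, si:dkey-258f14.7, which lies inside *lonrf1l* on the other strand, had 1 count, and *doc2d* had 4 counts, against 40193 for *lonrf1l*. si:dkey-258f14.3 was not called at any time (log2 fold change 1.25 at 6 h against 0 h, SE 0.71, adjusted p = 0.23 by edgeR).

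The neighbour si:dkey-258f14.2 overlaps the start of *lonrf1l* by 22078 bases on the minus strand. It had 140, 118 and 131 normalized counts at 6 h and 128, 111 and 105 at 3 h, against 48.1, 46.8 and 61.7 at 0 h. It rose by 1.14 on the log2 scale at 3 h (SE 0.18, adjusted p = 0.00028 by edgeR) and by 1.32 at 6 h (SE 0.18, adjusted p = 3.2e-05), while at 1 h it was at 0.20 (SE 0.18, adjusted p = 0.95). The strand setting of the counting is not given in the sources used here, and without it reads of these overlapping genes cannot be told apart. The call at 3 h was lost without replicate 1 or 2 at 0 h (1.08 and 1.07) and without replicate 1 or 2 at 3 h (1.05 and 1.17).

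**Figure D4:**
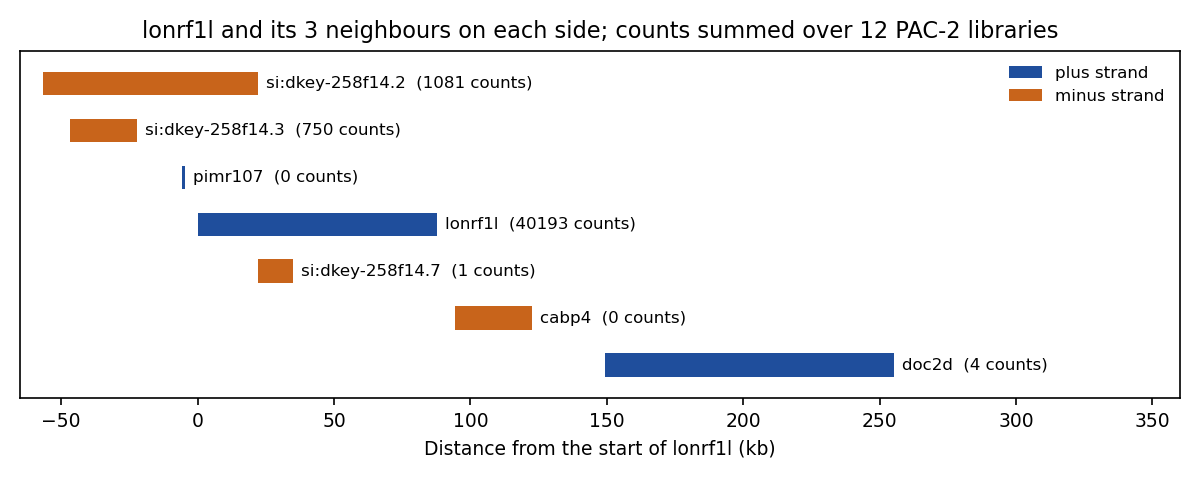
*lonrf1l* and its nearest 3 genes on each side, drawn to scale in kb from the start of *lonrf1l*, with the plus strand in blue and the minus strand in orange. The counts summed over the 12 PAC-2 libraries stand beside each gene, and 40193 of them belong to *lonrf1l*.

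In the assembled PAC-2 transcriptome, 3 genes carry a LONF entry as their best match. Their rows are not tied to genome genes by an ID, and names are those of the closest protein in another species. The row named LONF1_MOUSE, with a TPR domain, had 140, 121 and 137 normalized counts at 0 h and 594, 575 and 527 at 1 h. It had 1837, 1939 and 2036 at 3 h and 1891, 1941 and 1811 at 6 h. Its log2 fold changes against 0 h were 2.09, 3.87 and 3.82 after 1, 3 and 6 h, given with no test because they come from the libraries of the choice. Those of *lonrf1l* in the genome table were 2.15, 4.02 and 3.76.

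The row named LONF1_HUMAN, with a RING domain, averaged 141 ± 9.53 normalized counts at 0 h, 224 ± 18.2 at 1 h, 1613 ± 75.7 at 3 h and 1916 ± 77.5 at 6 h (SD, n = 3 each). Its log2 fold changes were 0.66, 3.51 and 3.76, beside 0.66, 3.37 and 3.63 for *lonrf1*. The row named LONF2_HUMAN, also with a RING domain, averaged 212 ± 12.3, 213 ± 5.25, 541 ± 14.3 and 802 ± 54.1 at 0, 1, 3 and 6 h. Its log2 fold changes were 0.01, 1.35 and 1.92, so that it had the smallest change at each time among the LONF rows in PAC-2 cells.

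From 3 h to 6 h, where a test was made, 0 of the 3 rows were called by edgeR or DESeq2, 2 had an unadjusted p under 0.05 in edgeR, as did 46.3% of all assembled genes, and 0.120% of all assembled genes were called higher. The log2 change of LONF2_HUMAN was 0.57 (SE 0.07, adjusted p = 0.00085 by edgeR) and that of LONF1_HUMAN was 0.25 (SE 0.07, adjusted p = 0.020). Both were under the fold threshold, with every library at 6 h above every library at 3 h. The share of all assembled genes with such separate libraries is not given here. With no fold threshold, an adjusted p under 0.05 in edgeR was met by 17.5% of all assembled genes higher and 19.4% lower. LONF1_MOUSE was at -0.04 (SE 0.07, 95% interval -0.20 to 0.11, adjusted p = 0.66). Beside it, *lonrf1l* was at -0.25 (SE 0.06) in the genome table over the same libraries, and the difference between these values was not tested.

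In EPA cells, 0 of the 3 LONF rows were called at 1 h, 3 h or 6 h against 0 h, where 0.0303%, 0.0908% and 0.298% of all assembled genes were called higher by edgeR. DESeq2 called 0 of them as well, and the unadjusted p of edgeR was under 0.05 for 0 rows at 1 h, 2 rows at 3 h and 3 rows at 6 h, where it was for 7.38%, 9.46% and 19.5% of all assembled genes. The more abundant row named LONF1_MOUSE, with a Lon substrate-binding domain and a RING domain, had 1436, 1425 and 1525 normalized counts at 6 h, 1494, 1417 and 1374 at 3 h and 1243, 1206 and 1258 at 1 h, against 1240, 1202 and 1218 at 0 h. All libraries at 3 h and 6 h lay above those at 0 h, but by little, and the share of all genes with such separate libraries is not given here. With no fold threshold, an adjusted p under 0.05 in edgeR was met by 1.09% of all assembled genes higher at 3 h and by 4.35% at 6 h. Its log2 fold change was 0.02 at 1 h (SE 0.04, adjusted p = 0.97 by edgeR), 0.23 at 3 h (SE 0.04, adjusted p = 0.034) and 0.26 at 6 h (SE 0.04, 95% interval 0.17 to 0.36, adjusted p = 0.0058).

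The scarcer EPA row named LONF1_MOUSE, with a RING domain only, had 177, 202 and 127 normalized counts at 6 h, against 82.2, 94.1 and 79.5 at 0 h. Its log2 fold change was 0.14 at 1 h (SE 0.24, adjusted p = 0.96 by edgeR), 0.70 at 3 h (SE 0.24, adjusted p = 0.33) and 0.98 at 6 h (SE 0.24, 95% interval 0.43 to 1.54, adjusted p = 0.044). The libraries at 6 h all lay above those at 0 h, with a wide spread, and the share of all genes with such separate libraries is not given here. With a library left out, the log2 fold change at 6 h lay between 0.83 and 1.15, on both sides of the fold threshold, and this row was still not called. The row named LONF2_HUMAN, which carries a yeast transposon entry as its first match, averaged 566 ± 19.6 at 6 h and 497 ± 54.4 at 0 h (SD, n = 3 each), a log2 fold change of 0.19 (SE 0.07, adjusted p = 0.19). From 3 h to 6 h, 0 of the 3 rows were called by edgeR or DESeq2, and 0.0130% of all assembled genes were called higher. An unadjusted p under 0.05 in edgeR was found for 0 of the 3 rows and for 16.1% of all assembled genes.

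**Figure D5:**
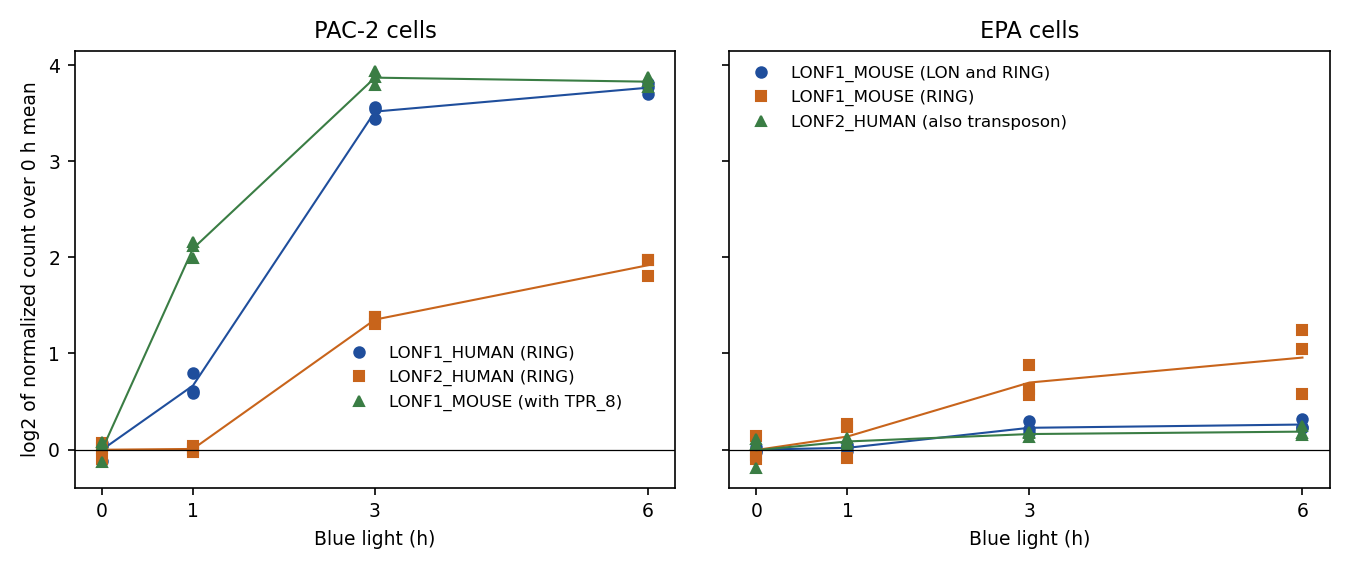
Log2 of the normalized count over the 0 h mean for the 3 LONF rows of PAC-2 cells (left) and of EPA cells (right) by hours of blue light, on a shared axis, with 1 point per library and lines joining the means of 3 libraries. The PAC-2 rows reach fitted log2 fold changes between 1.92 and 3.82 at 6 h, and the EPA rows between 0.19 and 0.98.

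Summed over the assembled genes whose first name is LONF1, the log2 fold changes against 0 h were 1.53, 3.69 and 3.83 after 1, 3 and 6 h in PAC-2 cells, and 0.02, 0.25 and 0.30 in EPA cells. These are set side by side with no test, since the PAC-2 libraries at 0 h and 1 h entered the choice of the gene. The difference between the lines was tested for the change from 3 h to 6 h only, which was 0.14 (SE 0.04) in PAC-2 cells and 0.05 (SE 0.05) in EPA cells. PAC-2 minus EPA was 0.09 (SE 0.06, 95% interval -0.05 to 0.23, adjusted p = 0.25 by edgeR), where 2.13% of 6238 shared names were called. The PAC-2 sum pools the rows LONF1_MOUSE and LONF1_HUMAN, whose changes from 3 h to 6 h were -0.04 and 0.25. It thus does not describe *lonrf1l* alone.

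Other genes around this pathway in PAC-2 cells were counted over 4 lists. Of the 3 genes outside the lonrf family that encode a Lon domain, 0 were called at 1 h, 3 h or 6 h against 0 h by edgeR or DESeq2, where 0.0222%, 0.705% and 1.47% of all tested genes were called higher. Of these 3 genes, 1, 1 and 2 had an unadjusted p under 0.05 in edgeR, as did 6.02%, 34.1% and 39.5% of all tested genes. *lonp2*, the peroxisomal Lon protease gene, had 1844, 1836 and 1805 normalized counts at 6 h, against 1189, 1115 and 1133 at 0 h, a log2 fold change of 0.67 (SE 0.05, adjusted p = 3.5e-08 by edgeR) that stayed under the fold threshold. *lonp1*, the mitochondrial Lon protease gene, was at 0.03 and *crbn*, the cereblon gene, at -0.21 on the same scale.

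Among 23 tested ubiquitin ligase genes of protein quality control, 0 were called at 1 h, 3 h or 6 h against 0 h by edgeR or DESeq2, beside the same 0.0222%, 0.705% and 1.47% called higher over all genes, at which so short a list would seldom hold a call. An unadjusted p under 0.05 in edgeR was found for 2, 9 and 10 of them, beside 6.02%, 34.1% and 39.5% of all tested genes. Of 4 ubiquitin genes, 0 were called by either tool, with 0, 2 and 1 under that p. Among 36 ubiquitin activating and conjugating enzyme genes, 0 were called higher at these times by either tool and 1 lower at 6 h, with 2, 11 and 14 under that p, where 0.0722% of all genes were called lower. This was *ube2c* (ENSDARG00000114670), the conjugating enzyme of the anaphase-promoting complex in mitosis, which had 2405, 2413 and 2469 normalized counts at 6 h, against 4981, 4910 and 5137 at 0 h, and fell by 1.04 on the log2 scale (SE 0.06, adjusted p = 1.8e-09 by edgeR). Another gene of the same symbol (ENSDARG00000101618) was at 0.02 at 6 h (SE 0.07, adjusted p = 0.88 by edgeR), and how the counting split reads between both is uncertain. The median log2 fold changes at 6 h were 0.03 for the Lon domain genes, 0.13 for the ligases, -0.05 for the enzymes and -0.15 for the ubiquitin genes, beside 0.00245 over all tested genes. At that time the 23 ligase genes lay between -0.30 and 0.63, while *lonrf1l* was at 3.76 and *lonrf1* at 3.63.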

How the data were processed

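Poly(A) RNA of PAC-2 and EPA cells was sequenced as paired-end reads in 24 libraries. For PAC-2, the authors' sequencing provider mapped the reads to GRCz11, and the deposited values are raw counts per gene and FPKM values. For both lines, the authors assembled the reads with Trinity, removed weakly expressed transcripts, and named them after UniProt and PFAM. Their deposited values are salmon's expected counts for each Trinity gene, and these were rounded to whole numbers. For the aligner, the counter, the strand setting and the salmon version, the entry is: not given in the sources used here. Columns of GO terms were not used.

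Each table was fitted with edgeR 4.0.16 in R 4.3.3 (TMM, filterByExpr by time, robust glmQLFit, glmQLFTest) over its 12 libraries, with 8 residual degrees of freedom. Calls needed a log2 fold change of 1 or more in size and a p below 0.001 after Benjamini-Hochberg adjustment over all tested genes of the table. The interaction test of the cell lines used UniProt names of both assembled tables with summed counts, with calls at differences of 1 or more and adjusted p below 0.05. Standard errors are the log2 fold change over the root of the F statistic. Normalized counts are TMM-scaled counts at the mean library size, and TPM was computed here from counts and gene lengths. Between the tables, levels were not compared. DESeq2 1.42.0 served as an alternative. The edgeR steps were tested on simulated data. No libraries held identical values, and any 2 differed by more than sampling noise.

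The text names the lonrf genes and LONF rows, the 5 genes with the highest Pearson r with *lonrf1l* (log2 CPM with a prior count of 2), the nearest 3 genes on each side, the genes called higher at 1 h and *per2*, and the members of 4 lists that were called. *lonp1*, *lonp2* and *crbn* were named in addition, after their values were seen. Members and lists were chosen with earlier results of these data known. Alternatives were the normalization, the filter on low counts, DESeq2, a fit of only the times compared, a replicate block and leaving out each library.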

Additional observations from a re-analysis of the deposited data

How the results depend on the processing

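The direction and call of *lonrf1l*, *lonrf1* and the LONF rows held in the alternatives, with the exceptions given here. The adjusted p of *lonrf1* at 1 h did not always stay under 0.001. Over the edgeR and DESeq2 alternatives, that of the more abundant EPA row LONF1_MOUSE ran from 4e-05 to 0.16 at 3 h. At 6 h it ran from 5.6e-07 to 0.065, and that of the scarcer EPA row LONF1_MOUSE from 4.5e-05 to 0.19. For LONF1_HUMAN in PAC-2 cells, from 3 h to 6 h, it ran from 2e-04 to 0.077. On the TPM scale, chosen after seeing the data, the log2 difference of *lonrf1l* from 3 h to 6 h was 0.027, and it was 3.84 for 3 h against 0 h and 1.66 for 3 h against 1 h. For *lonrf1* the values on this scale were 3.19 at 3 h and 3.73 at 6 h against 0 h, 2.51 for 3 h against 1 h and 0.54 for 6 h against 3 h. The median of all tested genes moved by -0.19 at 3 h against 0 h and by 0.27 from 3 h to 6 h on it. With a single assembled gene per name, the PAC-2 minus EPA difference of LONF1 was -0.015. Of LONF2_HUMAN at 1 h, the PAC-2 row was at -8.1e-05 with DESeq2 and between -0.038 and 0.044 with a library left out, and the EPA row between -0.0038 and 0.15. The cause was not tested.

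With a library left out, *lonrf1l* was between -0.29 and -0.21 for 6 h against 3 h. The call of si:dkey-258f14.2 at 3 h was also lost when only the times compared were fitted (1.15). An adjusted p under 0.05 with no fold threshold was met by 11.3% of all tested genes higher and 10.1% lower at 3 h, and by 14.1% and 14.9% at 6 h. At it, Lon domain genes had 1 member higher at 3 h and 1 at 6 h. The ligases had 3 higher and 4 lower at 3 h, and 3 higher and 2 lower at 6 h. The enzymes had 3 higher and 3 lower at 3 h, and 3 higher and 11 lower at 6 h. The ubiquitin genes had 2 higher at 3 h and 1 lower at 6 h.

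Counts over all genes moved more. At 1 h in PAC-2 cells, 2 genes were called higher in place of 4 when only the times compared were fitted. From 3 h to 6 h, 76, 82, 108 and 96 genes in place of 270 were called higher without replicate 1 or 2 at 3 h or replicate 1 or 2 at 6 h, and 11 in place of 18 lower without replicate 2 at 3 h. At 6 h against 0 h, 21 in place of 13 were lower without replicate 1 at 0 h. DESeq2 called 423 in place of 28 in the assembled PAC-2 table from 3 h to 6 h, where the count was between 2 and 54 with a library left out and 0 with only the times compared. In EPA cells it called 72, 98 and 155 in place of 7, 21 and 69 after 1, 3 and 6 h, and 3, 11 and 8 were called with only the times compared.

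No pairing of the libraries by replicate number was seen, which does not settle whether the design paired them. Deviations of same-numbered libraries correlated between -0.0856 and 0.160 in the genome table, and 5 of 12 libraries correlated best with their own number. With the number as a replicate block, *lonrf1l* was at 2.15, 4.02 and 3.76 after 1, 3 and 6 h, at 1.86 for 3 h against 1 h and at -0.25 from 3 h to 6 h. The PAC-2 minus EPA difference of LONF1 was 0.09. No call of a lonrf gene or LONF row changed with the block, while calls higher from 3 h to 6 h fell to 2 in the assembled PAC-2 table. Ranked by Spearman's rho in place of Pearson's r, 0 of the 5 genes closest to *lonrf1l* were shared, and with a mean log2 CPM of at least 2 all 5 were.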
